A study of Mus musculus with 30 samples.

Results

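The 41 genes described here encode the subunits of the proteasome and the proteins that cap or assemble it. The rule that picked them used subunit names and no measured value, and it was applied to the 49315 genes in the count table of hippocampal RNA. All 41 had enough reads to be tested, among 16486 tested genes in all. RNA was sequenced from dissected hippocampi of 13 TIMP2 knockout (KO) mice (6 males and 7 females) and 17 wild-type (WT) mice (10 males and 7 females), all of the C57BL/6J strain, to ask which transcripts differ when TIMP2, a secreted inhibitor of matrix metalloproteinases, is absent. The KO line came from the Jackson Laboratory, its deletion is not restricted to one cell type, controls were littermates, heterozygous animals were not used, and the study's methods give a pair of adult age ranges for its mice without saying which one these came from.

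The proteasome is the chamber in which eukaryotic cells degrade proteins that carry ubiquitin chains. Its barrel-shaped core is a stack of rings made of alpha subunits, which gate the entrance, and beta subunits, a few of which cut peptide bonds on the inside. A regulatory cap with a ring of ATPases recognises, unfolds and feeds in the substrate. Interferon-inducible beta subunits can replace the standard catalytic ones to form the immunoproteasome, which generates peptides for antigen presentation. In neurons the proteasome is known for its part in synaptic protein turnover and plasticity.

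The members fall into 7 core alpha genes, 4 core beta genes without catalytic activity, 3 standard catalytic beta genes, 3 immunoproteasome beta genes, 6 cap ATPases, 11 further cap subunits, 3 genes for factors that assemble the cap, and 4 genes for alternative activators. They lie on 15 chromosomes, and 8 are on chromosome 11, which also carries Timp2.

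Promoter sequences are shown first. Whether their motifs relate to the variation between mice that is described further on was not tested. RefSeq windows on GRCm38.p6, from 250 bases before to 50 bases after each annotated start, matched 35 of the 41 members by symbol. The short sequence CCGGAAG, the core of the site bound by ETS family factors, was found on either strand in 12 of these 35 members (34.3%), whereas 8.86% of all 32851 windows and 17.7% of the 12032 tested genes with a window held it. It was present in 9 of the 14 cap genes with a window, in 1 of 11 core genes (Psma6) and in 2 of 4 activator genes (Psme3 and Psme4). A gene with several windows was counted when any of them held it. For Psma6 it lay only in a window of a start inside the gene (chr12:55398575-55398874), which begins at 55384222. The following stretches from before an annotated start of 3 of the cap genes and of Psma6 read 5′ to 3′ along the gene, with CCGGAAG or its reverse complement in capitals:
Psmc6 (chr14:45329709-45329745, plus strand): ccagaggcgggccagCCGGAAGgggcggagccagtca
Psmd2 (chr16:20651611-20651647, plus strand): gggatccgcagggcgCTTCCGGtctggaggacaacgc
Psmd4 (chr3:95042718-95042754, minus strand): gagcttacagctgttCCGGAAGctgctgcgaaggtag
Psma6 (chr12:55398678-55398714, plus strand): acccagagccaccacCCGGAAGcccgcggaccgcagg

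The antioxidant response element core TGACNNNGC, the letters read by the stress-responsive factors NFE2L1 and NFE2L2 that are known to drive proteasome genes, was found in 6 of 35 members (17.1%) and in 16.7% of tested genes with a window. Among its carriers were the genes of both of the standard catalytic subunits that had a window, Psmb5 and Psmb6, whose stretches are shown with the motif in capitals:
Psmb5 (chr14:54618019-54618057, minus strand): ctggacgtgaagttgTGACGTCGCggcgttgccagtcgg
Psmb6 (chr11:70525333-70525356, plus strand): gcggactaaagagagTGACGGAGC

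GCGCATGC, the core of the site of nuclear respiratory factor 1, occurred in 2 of 35 members (5.71%, against 5.50% of tested genes), Psma2 and Psmc5. CCAAT was found in 13 of 35 (37.1%, against 42.3%). TTCNNNGAA, the letters of an interferon-gamma activated site, was found in 2 of 35 members (5.71%, against 8.07% of tested genes), of which 1, Psmb8, belongs to the immunoproteasome. GAAANNGAA, the core letters of an interferon-stimulated response element, was found in 6 of 35 (17.1%, against 8.52%) and in 0 of the 3 immunoproteasome genes. The stretch of Psmc5, a cap ATPase described further on, carries GCGCATGC in capitals:
Psmc5 (chr11:106256103-106256140, plus strand): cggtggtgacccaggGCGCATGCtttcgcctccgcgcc
A match shows only that these letters are present in the window. All motifs were searched on both strands, and no test was run on their shares.

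The counts were deep for this family. A KO mouse had 18345517 to 41081083 counts in all and a WT mouse 19445246 to 32098386, and proteasome genes took 0.309 to 0.348% of the counts in KO and 0.307 to 0.353% in WT mice. The lowest count of any member in any mouse was 24. Timp2 itself was lower in every KO mouse, with counts scaled to library size (CPM) between 130 and 171 (median 161), than in every WT mouse, with CPM between 256 and 380 (median 333), so no mouse went against its label. Reads remained on Timp2 in KO mice, and which exons they came from cannot be read from gene counts. KO mouse 11 stood apart with 717 CPM of choroid plexus markers (WT 25.6 to 65.3), and WT mouse 6 with 2.22% mitochondrial counts, against 3.48 to 4.17% in KO mice. Markers of choroid plexus and immediate early genes were higher in KO mice in the same fit, with an unadjusted p under 0.05 for 4 of 5 and 7 of 8 genes tested. The summed level of the choroid plexus list ran from 23.3 to 2050 TPM (median 34.6) in KO and from 15.5 to 132 (median 30.5) in WT mice, and that of the immediate early list from 298 to 885 (median 517) and from 257 to 770 (median 348). None of the 7 neuron, 6 oligodendrocyte and 10 microglia markers passed that threshold, while 1 of 6 astrocyte markers, the filament gene Gfap, was higher (log2 difference 0.093, SE 0.035) and 1 of 6 endothelial markers, the transporter gene Slco1a4, was lower (-0.10, SE 0.041). The other astrocyte markers lay between -0.046 (Slc1a3) and 0.058 (Aqp4), 3 of them below 0. No marker had an adjusted p under 0.05 in edgeR's quasi-likelihood test after Benjamini-Hochberg correction. The part of these markers in the values that follow was not tested.

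Levels of different subunits were compared per length, as TPM computed from the counts and the merged exon length of each gene. The median member stood at 97.9 TPM. Psmc5, an ATPase of the cap ring, was the highest by this length at 376 ± 13.7 TPM (SD, n = 30 mice), followed by Psmb5, which carries the chymotrypsin-like activity, at 365 ± 20.8 and Psmc1, another cap ATPase, at 286 ± 10.6. The lead of Psmc5 over Psmb5 was smaller than their SDs, and both lay above Psmc1 by more than their SDs. At the low end of the same scale stood Psmb9 at 1.51 ± 0.388, Psmb8 at 3.20 ± 0.468 and Psmd9, an assembly factor of the cap base, at 13.04 ± 0.992, each separated from the next by more than its SD.

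**Figure D1:**
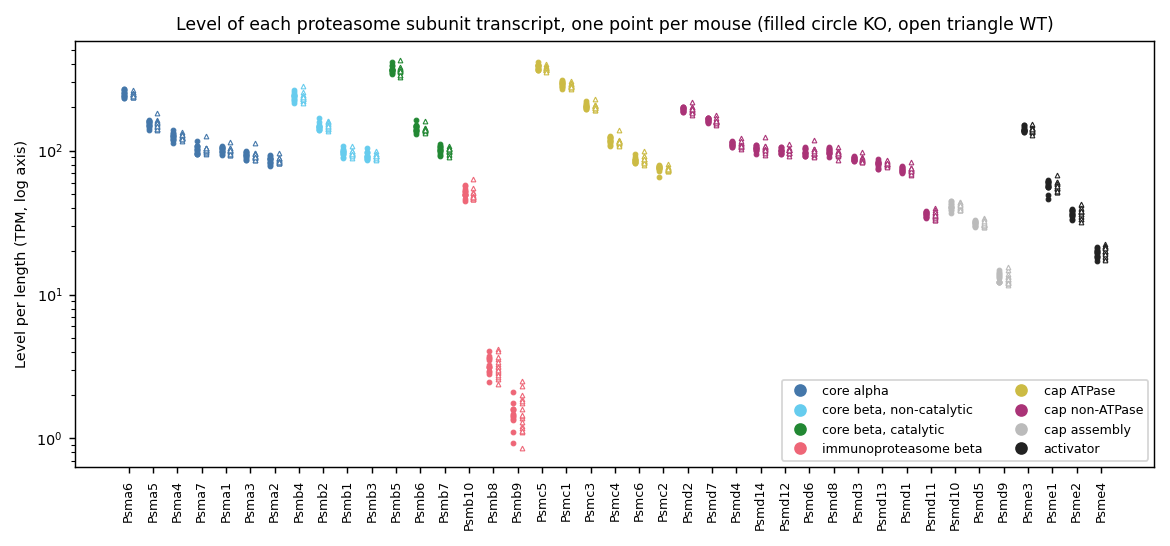
Level per length of each of the 41 members (TPM, log axis), with 1 point per mouse for 13 KO mice (filled circles) and 17 WT mice (open triangles), coloured by subunit class. Core and cap genes lie mostly between 35.9 and 376 TPM, whereas Psmb8 and Psmb9 lie near 3.20 and 1.51 TPM.

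Members of one particle, which enter it in equal number, did not have equal transcript levels. The 7 alpha genes spanned 85.8 (Psma2) to 247 TPM (Psma6) around a median of 102, and the 4 beta genes without catalytic activity spanned 91.9 (Psmb3) to 236 (Psmb4). Among the standard catalytic genes, Psmb5 stood above Psmb6, which carries the caspase-like activity, at 142 ± 7.22 and Psmb7, which carries the trypsin-like activity, at 101 ± 5.01. The 6 cap ATPases ran from 75.1 (Psmc2) to 376 TPM. The 11 further cap subunits ran from 35.9 for Psmd11, a scaffold of the lid, to 193 for Psmd2, a large scaffold of the base. The factors that assemble the base, Psmd5, Psmd9 and Psmd10, lay at 31.1, 13.04 and 41.1 TPM. Of the activators, Psme3, which forms a nuclear ring, reached 140, Psme1 and Psme2, which form an interferon-inducible ring together, 57.0 and 36.9, and Psme4, a large single-chain cap, 19.8 TPM. The order depends on the length used. With the longest transcript in place of merged exons the median member stood at 117 TPM, and Psmb4 came first at 306, ahead of Psmc5 at 295, Psmb5 at 286 and Psmc1 at 273. Psmb9 (1.51) and Psmb8 (4.45) were again the lowest, but Psme4 (20.06) took the place of Psmd9 (28.1) as the next. Members in between moved by up to 14 ranks, from 31 to 17 for Psmd1 and from 14 to 27 for Psmc4.

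The spread between mice was small. The median coefficient of variation of TPM over the 30 mice was 4.74%, and by class it ran from 3.89% for cap ATPases to 14.6% for the immunoproteasome genes, the least abundant of which, Psmb9, had 25.7%.

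Of the 3 immunoproteasome genes, Psmb10 alone came within a few-fold of the standard subunit that it replaces. Psmb10 replaces Psmb7, and its level per length was 50.3 ± 3.30% of that of Psmb7 (SD) in the 13 KO mice and 49.5 ± 5.45% in the 17 WT mice. Psmb8 replaces Psmb5 and reached 0.888 ± 0.137% of it in KO and 0.872 ± 0.131% in WT mice. Psmb9 replaces Psmb6 and reached 1.04 ± 0.233% in KO and 1.09 ± 0.324% in WT mice. All 3 ratios differed between genotypes by less than their SDs. With the longest transcript as the length, the ratios over all mice were 1.56% for Psmb8, 0.7002% for Psmb9 and 54.0% for Psmb10, so the order of Psmb8 and Psmb9 turns with the length used. Psmb8 shares 498 exon bases with Gm20496 and Psmb9 212 with Tap1, both on the opposite strand. Psmb7, the counterpart of Psmb10, shares 405 with Nek6, and Psmd9 shares 1849 with Gm26745, also on the opposite strand. Some other members have smaller overlaps. The strand setting of the counting was not given in the sources used here, so reads of these genes and their neighbours cannot be told apart there. In bulk tissue, fewer cells of a type and less RNA per cell cannot be told apart.

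The comparison of KO with WT mice asked whether proteasome transcripts depend on TIMP2. In no member were the groups separated, and differences were a few percent at most. At an unadjusted p under 0.05, the threshold that the study used for differential expression, 2 of 41 members were higher in KO (4.88%) and 0 were lower. Over all 16486 genes tested, 2.38% were higher and 2.5% were lower at this threshold, so with 41 genes about 1 gene in each direction is the background. No member passed an adjusted p of 0.05 in edgeR's quasi-likelihood test, a threshold that 7 genes of the whole table (0.0425%) passed, and none did with DESeq2.

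Psmc5 lay between 135 and 155 CPM (median 142) in KO mice and between 132 and 146 (median 140) in WT mice. The ranges overlapped, and 9 of 13 KO mice were above the WT median. The difference was 3.14% (95% interval 0.327 to 6.04%), or 0.045 on the log2 scale (SE 0.020), with an unadjusted p of 0.0294 and an adjusted p of 0.987 in edgeR's quasi-likelihood test (Benjamini-Hochberg). Its gene lies 12.0 Mb from Timp2 on chromosome 11. The other members within 20 Mb of Timp2 were Psmd12, Psme3 and Psmd3, with log2 differences of -0.0033, 0.0092 and 0.017, none with an unadjusted p under 0.05.

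Psmd7, which forms the dimer that carries the deubiquitinase of the cap, lay between 94.97 and 104 CPM (median 100.1) in KO mice and between 89.7 and 102 (median 97.2) in WT mice. The groups again overlapped, with 10 of 13 KO mice above the WT median. The difference was 2.65% (95% interval 0.00773 to 5.37%), 0.038 on the log2 scale (SE 0.019), with an unadjusted p of 0.0494 and an adjusted p of 0.998 in the same edgeR test. Psmd8, a cap subunit just outside the threshold at an unadjusted p of 0.0506, lay between 74.4 and 86.5 CPM in KO and between 70.0 and 82.9 in WT mice and differed by 3.25% (95% interval -0.00875 to 6.62%).

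These calls lay near the threshold and changed when single mice were left out. The log2 difference then ran from 0.0345 to 0.0512 for Psmc5 and from 0.031 to 0.043 for Psmd7. Psmc5 lost its call when KO mouse 1, 8, 11 or 14 was left out, with an unadjusted p of up to 0.0770. Psmd7 lost its call without any 1 of 18 of the 30 mice, with p up to 0.0930 (KO mice 1, 5, 8, 10, 18, 20 and 25, and WT mice 2, 9, 12, 16, 19, 21, 23, 28, 29, 31 and 32). The count of 2 became 0 without KO mouse 1 or 8, and 4 without WT mouse 6 or KO mouse 27. It was 3 without WT mouse 4, KO mouse 15 or WT mouse 26. It was 1 without KO mouse 10, 11, 14 or 20 or WT mouse 2, 19, 21, 23, 28, 29, 31 or 32. Without KO mouse 5, 18 or 25 or WT mouse 9, 12 or 16 it stayed at 2, with Psmd8 in place of Psmd7. Without both mice that stood apart, KO mouse 11 and WT mouse 6, the count was 5 (Psmb10, Psmc4, Psmc5, Psmd7 and Psmd8).

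**Figure D2:**
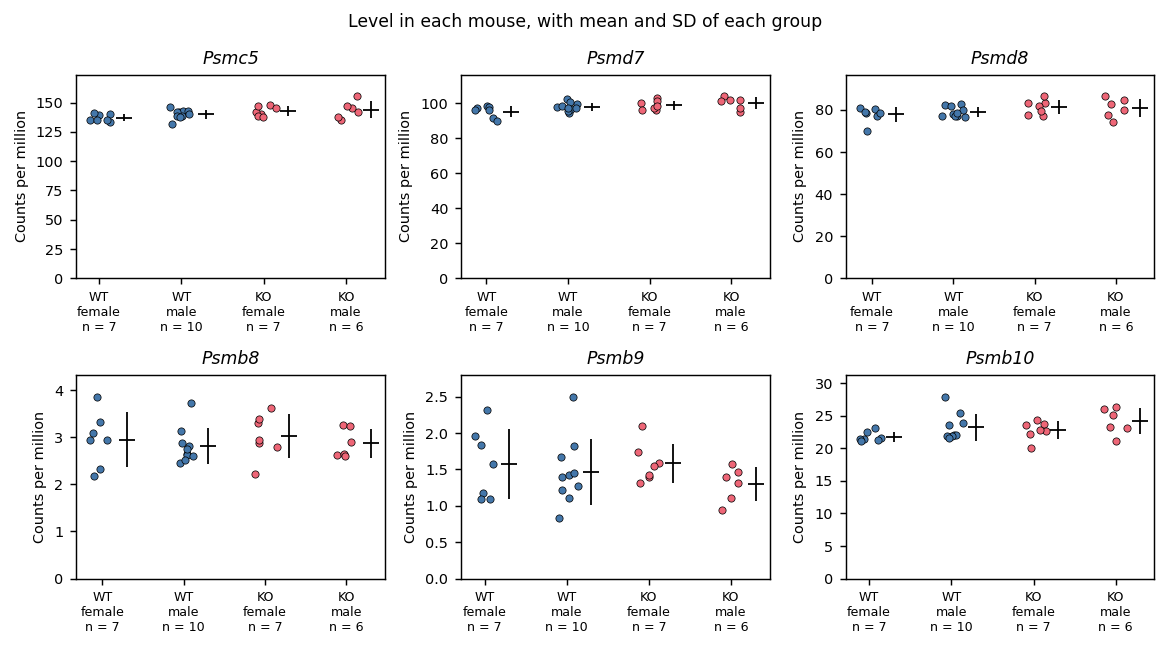
CPM in each mouse for 6 members, by genotype and sex, with the mean and SD of each group beside its points and the axis starting at 0. For Psmc5 the KO mice lie between 135 and 155 and the WT mice between 132 and 146, and in all 6 panels the groups overlap.

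The largest log2 differences in either direction were those of Psmb10, Psme4 and Psmd8, and none of the 3 passed the unadjusted threshold. Psmb10 lay between 20.1 and 26.4 CPM (median 23.3) in KO and between 21.1 and 27.9 (median 22.0) in WT mice, overlapping ranges with 11 of 13 KO mice above the WT median. Its difference was 3.52% (95% interval -1.94 to 9.29%). Psme4 lay between 38.6 and 48.0 CPM (median 44.3) in KO and between 39.0 and 49.2 (median 45.8) in WT mice, and 3 of 13 KO mice were above the WT median. Its difference was -3.36% (95% interval -8.00 to 1.51%). Psmb8 lay between 2.22 and 3.62 CPM in KO and between 2.18 and 3.86 in WT mice, with a difference of 2.59% (95% interval -8.28 to 14.8%), and Psmb9 lay between 0.936 and 2.10 CPM in KO and between 0.837 and 2.499 in WT mice, with a difference of -3.02% (95% interval -19.0 to 16.2%). The standard catalytic genes differed by 1.34% (Psmb5, 95% interval -2.53 to 5.36%), 2.07% (Psmb6, -1.39 to 5.65%) and 1.61% (Psmb7, -2.15 to 5.50%).

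By class, unadjusted calls came from the cap alone, 1 of 6 ATPases (Psmc5) and 1 of 11 further cap subunits (Psmd7). None of the 7 alpha genes, 7 standard beta genes, 3 immunoproteasome genes, 3 assembly factors and 4 activators had an unadjusted p under 0.05. Among the alpha genes the log2 difference ran from -0.0016 (Psma7) through -0.00072 (Psma2), 0.0064 (Psma3), 0.011 (Psma5), 0.012 (Psma4) and 0.020 (Psma1) to 0.021 (Psma6). The beta genes without catalytic activity ran from -0.017 (Psmb2) through 0.012 (Psmb3 and Psmb4) to 0.023 (Psmb1). Of the cap ATPases other than Psmc5, which thread substrates into the core, Psmc1 came nearest to a call (0.039, unadjusted p 0.0841), and Psmc2, Psmc3, Psmc4 and Psmc6 lay between -0.0024 and 0.027. Of the further cap subunits, the ubiquitin receptor Psmd4 (0.0084), the scaffolds Psmd1 (0.0077) and Psmd2 (0.019) and the deubiquitinase Psmd14 (0.0055) were within 0.02 of no difference, and Psmd3, Psmd6, Psmd11, Psmd12 and Psmd13, which build the lid, lay between -0.0080 and 0.021. The assembly factors lay between 0.0033 (Psmd10) and 0.030 (Psmd9), and the activators other than Psme4 between -0.029 (Psme2) and 0.0092 (Psme3). The 95% interval of the difference lay inside ± 5% for 24 of 41 members, inside ± 10% for 39 and inside ± 20% for all 41, so a change of 20% or more in either direction was outside the interval of every member.

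**Figure D3:**
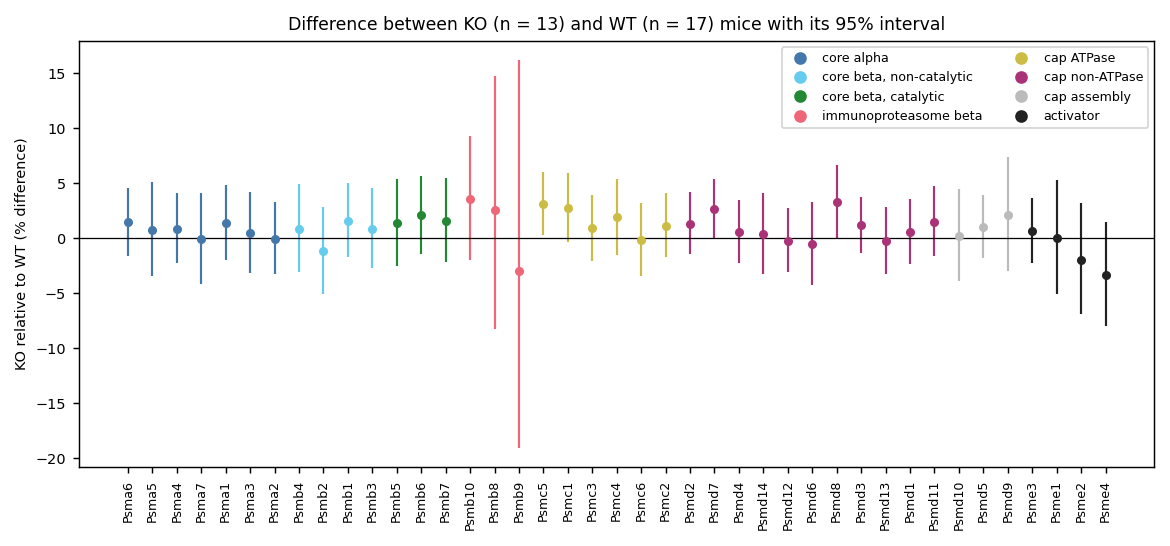
Difference of KO (n = 13) from WT (n = 17) mice in percent for each member, with its 95% interval from edgeR's quasi-likelihood fit, by subunit class. The intervals of Psmc5 (0.327 to 6.04%) and Psmd7 (0.00773 to 5.37%) lie above 0, and those of Psmb8 and Psmb9 are the widest.

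The sign of the difference was positive for 30 of 41 members (73.2%), against 50.2% of all genes tested, and the median log2 difference was 0.012 against 0.00010. Because the members varied together, as described next, these signs are not 41 separate observations. The mean level of the 38 members outside the immunoproteasome, on the log2 scale relative to the mean over all mice, was 0.0062 ± 0.0411 (SD) in the 13 KO mice and -0.0048 ± 0.0409 in the 17 WT mice, a difference smaller than either SD.

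The mean level moved with the number that each sample title gives the mouse. What that number stands for was not given in the sources used here, and the harvest dates that the study's network methods name as a batch were not used here because the labels hold none. In the 13 mice numbered up to 14 it was 0.032 ± 0.0324 (range -0.0137 to 0.096), and in the 17 mice numbered above 14 it was -0.024 ± 0.0278 (range -0.090 to 0.022). The same step appeared in each genotype, from 0.035 ± 0.0306 (n = 7) to -0.027 ± 0.0218 (n = 6) in KO and from 0.028 ± 0.0370 (n = 6) to -0.023 ± 0.0315 (n = 11) in WT mice. This division at 14 was chosen after the values had been seen, and it is given without a test. Mice numbered up to 14 made up 7 of the 13 KO and 6 of the 17 WT mice. With the division as a covariate the median log2 difference of the members between KO and WT was 0.0023, 0 members had an unadjusted p under 0.05, and Psmc5 and Psmd7 had values of 0.033 (unadjusted p 0.0634) and 0.036 (unadjusted p 0.0635) in edgeR's quasi-likelihood test. Within the lower and the higher numbers alone, the median was 0.0061 and -0.0057, again with 0 members called in either direction.

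**Figure D4:**
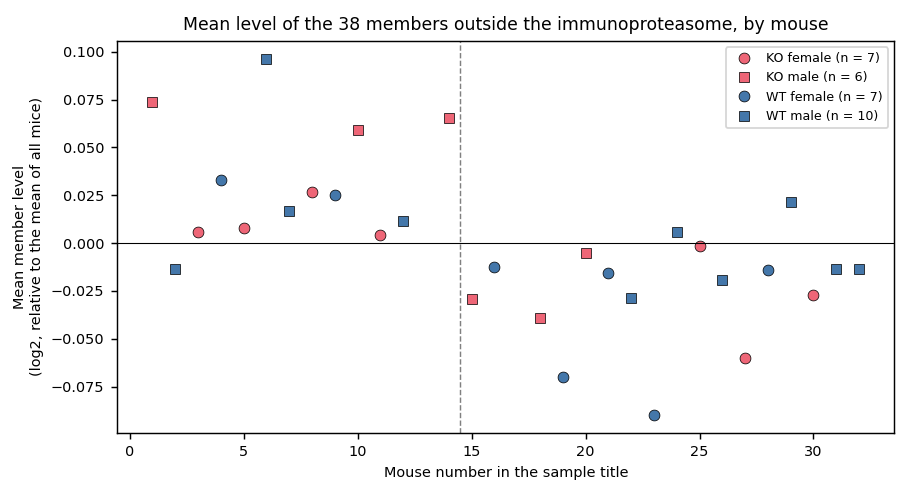
Mean log2 level of the 38 members outside the immunoproteasome in each of the 30 mice, relative to the mean of all mice, against the mouse number in the sample title, by genotype and sex, with a dashed line after number 14. The mice up to 14 lie between -0.0137 and 0.0964 and those above 14 between -0.0897 and 0.0215, in both genotypes.

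Sexes were pooled in the comparison, as in the study. The difference between KO and WT was not shown to depend on sex for any member, since 0 of 41 had an unadjusted p under 0.05 for the interaction of sex and genotype, with edgeR's quasi-likelihood test or with DESeq2, where 2.49% of all genes had one in edgeR. The smallest interaction p among the members was 0.187, for Psmd5.

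Between males and females, in a fit with genotype, 6 of 41 members (14.6%) were higher in males at an unadjusted p under 0.05, against 4.55% of all genes, and 0 were lower, against 5.09%. They were 3 core beta genes (Psmb2, Psmb3 and Psmb6), Psmb10 of the immunoproteasome and 2 cap ATPases (Psmc4 and Psmc6). Psmb2 stood at 49.2 ± 2.37 CPM (SD) in the 16 males and 46.7 ± 2.16 in the 14 females, and it had the smallest p, with a log2 difference of 0.076 (SE 0.026), an unadjusted p of 0.00592 and an adjusted p of 0.308 in edgeR's quasi-likelihood test (Benjamini-Hochberg), and Psmb10 the largest difference, 0.090 (SE 0.036). No member passed an adjusted p of 0.05, which 0.212% of all genes passed, and DESeq2 called 6 members at the unadjusted threshold as well. Because the members varied together, as described next, these calls are not 6 separate observations. The comparison of sexes was not repeated with single mice left out. WT mouse 6, a male that stood apart, had the highest level of Psmb10 (27.9 CPM), Psmc4 (77.5) and Psmc6 (89.4) of all mice.

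Most members varied together from mouse to mouse. Pearson's r of log2 CPM between 2 members had a median of 0.389 over the 820 pairs (Spearman's rho 0.342), with 28.9% of pairs above 0.5, whereas the median over all 135885855 pairs of tested genes was -0.0015 with 1.30% above 0.5. Within a genotype the median was 0.392 for KO and 0.3900 for WT mice, and it was 0.379 with the means of genotype and sex removed. These correlations are descriptions, since the members share libraries, depth and normalization. Leaving out 1 mouse at a time gave medians of 0.338 to 0.405.

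A part of this shared variation followed transcript length and the mouse number. The difference between the median shift of genes under 2000 exon bases and that of genes over 6000 bases in a mouse had r = 0.683 with the mean level of the members (rho 0.718), 0.406 within the mice numbered up to 14 and 0.25 within those above. With that difference regressed out the median over member pairs was 0.243, with 12.4% of pairs above 0.5, against -0.00050 and 0.942% for all pairs. Within mice numbered up to 14 the median was 0.268, and above 14 it was 0.252. The astrocyte markers, taken as a log2 deviation in each mouse and not as a sum of counts, moved the other way. Their r to the mean level of the members was -0.732 (rho -0.661), and -0.804 and -0.695 within the lower and higher numbers. Log2 total counts had r = -0.0011 with it. The share of mitochondrial counts had r = -0.422, and -0.113 without the 2 mice farthest from its median. The part of these measures in the covariation was not tested beyond the regression on length and the division by number.

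Within the core the median r was 0.539, within the cap 0.455, and between core and cap 0.468. The value between core and cap thus lay between the values within each. These medians and those that follow are from before the regression on length. By class the medians were 0.562 for the alpha genes, 0.574 for the 3 standard catalytic genes, 0.475 for the cap ATPases and 0.427 for the further cap subunits. Activators had a median of 0.140 among themselves and 0.249 with the core and cap. The immunoproteasome genes had 0.0082 among themselves and 0.138 with the core and cap.

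Each member was then set against the mean of the other members outside the immunoproteasome. For 30 of 41 members r was above 0.5, and for 12 it was above 0.7. It was highest for Psmb1, a beta subunit of the core (r = 0.851), Psmd14, the deubiquitinase of the cap (0.838), and Psma1, an alpha subunit (0.833). All 3 kept an r above 0.7 with the length-related difference regressed out (0.718, 0.781 and 0.707). The order changed, and after the regression Psmd6 (0.812) and Psmd2 (0.791) were the highest. The counts of members above 0.5 and 0.7 are from before the regression. Before it, r was lowest for Psme4 (-0.170), Psmd11 (-0.049) and Psmb9 (0.035), followed by Psmb8 (0.0999). Psmd11 had an r of -0.618 in KO and 0.222 in WT mice, a difference that was not tested, and 0.334 over all mice after the regression on length. After that regression Psme4 was at -0.093. Psmd11 and Psme4 have 6383 and 8382 merged exon bases, and their longest transcripts have 2975 and 6491 bases. Psmd1, Psmd9 and Psmd5, of 7265, 7248 and 7230 merged exon bases, had r values of 0.644, 0.420 and 0.484. The longest transcripts of those 3 have 3112, 2634 and 4397 bases. The part of length in these r values was not tested beyond the regression. Psmb10 differed from the other immunoproteasome genes, with an r of 0.586, but 0.3495 after the regression on length. Psmb8 and Psmb9 then had 0.0704 and -0.0254. With the length-related difference itself, Psmb10 had r = 0.545, Psmb8 0.0712 and Psmb9 0.0779.

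**Figure D5:**
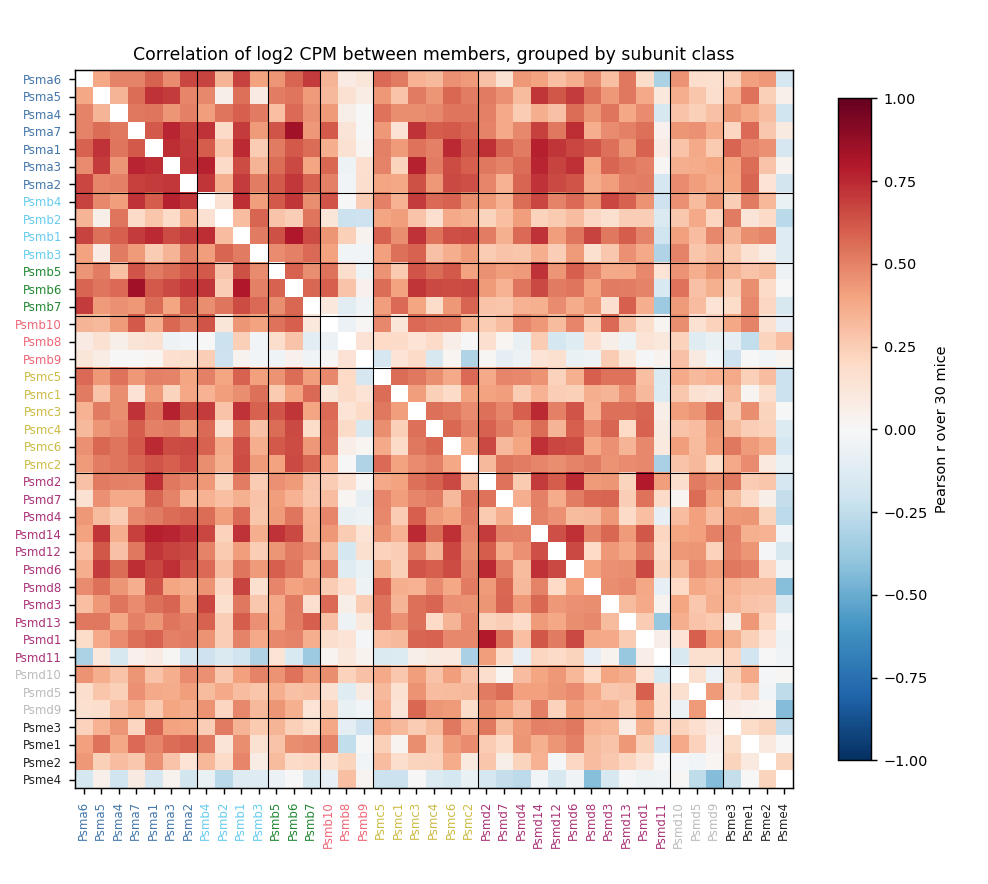
Pearson's r of log2 CPM over 30 mice for each pair of the 41 members, ordered by subunit class with lines between classes (red above 0, blue below 0, diagonal blank). Core and cap genes form a red field with medians of 0.539 and 0.455, and Psmb8, Psmb9, Psmd11 and Psme4 form pale or blue lines through it.

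Of 14 pairs that were picked by structure, with earlier results of these data known, 6 had an adjusted p under 0.05 for r in a 2-sided permutation test over the 30 mice, with Benjamini-Hochberg correction over the 14 pairs, and 3 of them (Psmb6 with Psmb7, Psmc3 with Psmc6 and Psmc4 with Psmc5) also did for rho. The passing pairs had r of 0.461 to 0.592. Over all pairs the median r was 0.539 within the core, 0.455 within the cap and 0.468 between them. Such values were therefore not particular to the picked pairs. The share of all member pairs that would pass was not computed. The standard catalytic genes went together. Psmb5 and Psmb6 had r = 0.592 (adjusted permutation p 0.00574) and rho = 0.388 (adjusted permutation p 0.124), with r = 0.3601 without the 2 mice farthest from the median of Psmb5, so the relation rested in part on those mice. Psmb6 and Psmb7 had r = 0.574 (adjusted permutation p 0.00574) and rho = 0.520 (0.0337), and r = 0.692 without 2 mice, but 0.137 within mice numbered up to 14 and 0.753 within those above. Psmb5 and Psmb7 had r = 0.462 (adjusted permutation p 0.0245) and 0.207 without 2 mice, with 0.0736 and 0.479 within the lower and higher numbers.

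Among cap pairs, the neighbouring ATPases Psmc3 and Psmc6 had r = 0.525 (adjusted permutation p 0.0153), and 0.346 and 0.3595 within the lower and higher numbers. Psmc4 and Psmc5 had r = 0.461 (adjusted permutation p 0.0245), with 0.217 and 0.445. The dimer partners Psmd7 and Psmd14 had r = 0.505 (adjusted permutation p 0.0166) and rho = 0.355 (0.128), with 0.447 and 0.502. Without the 2 mice farthest from the median of the first gene, these pairs had r of 0.363, 0.368 and 0.318, in that order. Their relations therefore also rested in part on those mice. Psmc1 and Psmc2 did not pass (r = 0.402, adjusted permutation p 0.0531), nor did the activator pair Psme1 and Psme2 (r = 0.0998, adjusted permutation p 0.762).

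No pair with an immunoproteasome gene passed. Psmb8 had r = 0.147 with Psmb9 (adjusted permutation p 0.684) and -0.059 with Psmb10 (0.882), and Psmb9 had 0.0082 with Psmb10 (0.965). With the standard subunits that they replace, r was 0.178 for Psmb8 and Psmb5 (adjusted permutation p 0.608), 0.041 for Psmb9 and Psmb6 (0.891), and 0.102 for Psmb10 and Psmb7 (0.762).

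The 3 immunoproteasome genes were then set against 7 lists, 14 antigen presentation and interferon genes and 6 sets of cell type markers. Each list entered as its log2 deviation in each mouse, not as a sum of counts. These 21 relations were chosen after the data had been seen. Psmb8 had r = 0.515 with the antigen presentation list (permutation p 0.00376, adjusted 0.0790) and rho = 0.508 (adjusted permutation p 0.0482), and r was 0.475 without 2 mice, 0.540 in KO, 0.544 in WT, 0.575 in mice numbered up to 14 and 0.492 above. Psmb9 had r = 0.450 with it (permutation p 0.0128, adjusted 0.104) and rho = 0.542 (adjusted permutation p 0.0482), and 0.474 without 2 mice, 0.300 in mice numbered up to 14 and 0.528 above. Without Tap1, the neighbour that overlaps Psmb9, its r was 0.436. Psmb10 had r = -0.076 (adjusted permutation p 0.888). By r, 0 of the 21 relations passed an adjusted p of 0.05, and 5 had an unadjusted permutation p under 0.05. Apart from the antigen presentation list these were Psmb8 with microglia markers (r = 0.423, adjusted permutation p 0.104), Psmb9 with endothelial markers (r = 0.426, 0.104) and Psmb10 with astrocyte markers (r = -0.376, 0.174). The last of these turned sign with the mouse number, at -0.649 up to 14 and 0.229 above, and its rho was -0.231 (permutation p 0.218).

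Around the proteasome, 52 genes in 6 lists were examined in the same fit of KO against WT, of which 51 were tested. At an unadjusted p under 0.05, 5 of the 51 were higher in KO and 1 was lower, against 2.38% and 2.5% of all genes tested, and none passed an adjusted p of 0.05 in edgeR's quasi-likelihood test (Benjamini-Hochberg). These calls were not examined with the division by mouse number as a covariate, with which no member kept its call. Of the 7 further assembly factors tested, 2 were higher, the core assembly chaperones Psmg2 (log2 difference 0.086, SE 0.030) and Psmg3 (0.11, SE 0.047), around a median of -0.014 for the list. Psmg2 lay between 12.7 and 14.9 CPM (median 13.8) in KO and between 12.0 and 14.2 (median 12.8) in WT mice, with overlapping ranges. Of 8 other proteasome-associated genes, Zfand5, a zinc finger protein that activates the proteasome, was lower (-0.050, SE 0.022). Among 10 genes of substrate shuttling and extraction, Vcp, the ATPase that pulls ubiquitinated proteins out of complexes and membranes, was higher (0.039, SE 0.017).

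None of the 6 genes for ubiquitin and its activating enzymes passed the unadjusted threshold. Of 6 regulators of proteasome genes, Mafk, a partner of NFE2L1 and NFE2L2, was higher (0.10, SE 0.043), and those 2 factors were not. Of 14 antigen presentation and interferon genes, Irf9, the DNA-binding part of the interferon-stimulated complex, was higher, at 6.13 to 9.39 CPM (median 7.34) in KO and 5.09 to 7.48 (median 6.51) in WT mice, ranges that overlap. Its log2 difference was 0.20 (SE 0.058), with an unadjusted p of 0.00168 and an adjusted p of 0.773 in the same edgeR test.

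Some counts can be shared with copies elsewhere in the genome. Transcripts of other genes matched a member over at least 200 bases at 95% identity or more in 20 gene pairs. The copy with the most counts was Psme2b, with 99.4% identity to Psme2 over 794 bases and 828 counts over all mice against 14458 for Psme2. Stretches of full identity joined Gm13835 to Psma3 (685 bases, 505 counts against 80205) and Gm21972 to Psmd1 (305 bases, 416 counts against 118557). Among the other pairs, Gm3375 matched Psmb5 at 98.9% over 796 bases and Gm8394 matched Psma5 at 98.6% over 952 bases. How reads that match several genes were counted was not examined here. The counts of the copies therefore do not bound the uncertainty in the levels of these members. Psmc5 and Psmd7 had no such copy and no exon shared with another gene.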

How the data were processed

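Hippocampal RNA of 30 mice was sequenced from poly(A)-selected, paired-end libraries. The authors deposited raw counts of reads per gene, not normalized, and their processing notes name Trimmomatic 0.36, STAR 2.5.2b, featureCounts, Subread 1.5.2 and GRCm38. All columns matched a mouse. From these counts edgeR 4.0.16 (R 4.3.3) gave TMM factors, dropped genes with low counts and ran its robust quasi-likelihood test over the whole table, with both sexes pooled and Benjamini-Hochberg correction over the 16486 genes tested. Log2 CPM used a prior count of 2, and lengths came from GENCODE M21. The common biological coefficient of variation was 7.52%. Permutation tests used 100000 resamples in Python 3.11.15 with numpy 2.4.6. Copies were searched with BLAST 2.17.0. The study itself used DESeq2, which is an alternative here. The fit was tested on simulated data.

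Members with an unadjusted p under 0.05, the immunoproteasome genes with their counterparts, and the 3 extremes of level, of absolute difference and of correlation to the other members were named. The members follow from subunit names alone, but the family, the lists and the pairs were proposed with earlier results of these data known. Alternatives were DESeq2 1.42.0, other scalings and filters, sex, 8 surrogate variables (sva 3.50.0), log2 total counts, each sex alone, limma 3.58.1 voom with sample weights, and each mouse left out. Regression on transcript length, mouse number, extra motifs, the relations of the immunoproteasome genes and removal of mice that stood apart were added after the data had been seen. Each mouse is a separate animal. Paaf1 was not analysed here.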

Additional observations from a re-analysis of the deposited data

How the results depend on the processing

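The count of 2 members higher in KO at an unadjusted p under 0.05 became 1 with RLE size factors, 1 with upper-quartile size factors, 1 with no filter, 1 with at least 10 counts in every mouse, 4 with sex and surrogate variables (Psma5, Psmc5, Psmd7 and Psmd8), 1 in females alone and 0 in males alone. Of the settings chosen after the data had been seen, it was 5 without the mice that stood apart, 0 with mouse number up to 14 or above as a covariate, and 0 within either set of mice. It was 2 with DESeq2 and with sex as a covariate, and 3 with limma voom and with log2 total counts as a covariate. Leaving out 1 mouse at a time gave 0 to 4. In all of these settings 0 members were lower in KO and 0 passed an adjusted p of 0.05. The median log2 difference of the members lay between -0.0057 (mouse numbers above 14 alone) and 0.024.

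The 6 other pathway genes called became 1 in females alone, and 5 to 7 with 1 mouse left out. The median r over member pairs of 0.389 became 0.243 with the length-related difference regressed out, 0.268 in mouse numbers up to 14, 0.252 above 14 and 0.240 with their means removed, and 0.338 to 0.405 with 1 mouse left out. The median level per length moved from 97.9 to 117 TPM with the longest transcript. The cause was not tested. No paired analysis was possible because the sample labels give no replicate numbers shared by the genotypes. Psmb9 and Psmb8 had the fewest counts, with medians of 38.5 and 75 per mouse, and the widest intervals.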
